A study of Mus musculus with 7 samples.

Results

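The enzymes of amino acid catabolism are the 44 genes described here, of 54532 genes in the deposited table. They were chosen by name, as enzymes that break down the aromatic amino acids and tryptophan, the branched-chain amino acids and propionyl-CoA, serine and glycine, proline, histidine, lysine and the sulfur amino acids, with the main transaminases and glutamate dehydrogenase. Bckdk, a kinase that inactivates the branched-chain keto acid dehydrogenase, is counted with them although it breaks down no amino acid. The study compared livers of male C57BL/6 mice at 30 weeks of age, 4 from mice on caloric restriction (CR) and 3 from mice fed ad libitum (AL). CR began at 12 weeks of age, was deepened week by week to 30% below normal intake and had lasted 18 weeks when the livers were taken. CR mice were caged singly and received their daily meal early in the dark phase, whereas AL mice shared cages and ate freely. All livers were collected in the afternoon, and effects of housing and of the hours since eating cannot be told apart from the diet. Each mouse gave 1 library of poly(A) RNA. The comparison asks how the liver transcriptome differs after long-term restriction.

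The liver is the main site of amino acid breakdown. Amino groups are moved by transaminases to glutamate and released as ammonia for the urea cycle, and the carbon skeletons enter gluconeogenesis, ketone body formation or the citric acid cycle. Branched-chain amino acids are an exception, because the liver holds little of the transaminase that starts their breakdown and mainly oxidises the keto acids that muscle releases. Many enzymes of these pathways are regulated by glucagon and glucocorticoids and by the supply of protein.

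Levels are given as FPKM, that is, fragments per kilobase of gene after scaling for library depth. Whole reads recovered from them summed to 15641740 to 19900806 per library, and the least covered enzyme, Sdsl, had at least 149 reads in every library. The 44 genes together held 1.65% to 2.02% of the reads in CR livers and 1.18% to 1.47% in AL livers. Mitochondrially encoded genes held 5.62% to 8.09% of the reads in CR livers and 3.92% to 4.85% in AL livers. Saa1, an acute-phase transcript, had 2.28, 2.89, 36.9 and 3.06 FPKM in CR replicates 1 to 4, against 771, 748 and 4176 FPKM in AL replicates 1 to 3, so that every AL liver was above every CR liver and AL replicate 3 was highest. Lcn2, which rises with it in inflammation, was 3.65 to 45.7 FPKM in the CR livers, against 33.8, 35.1 and 765 FPKM in AL replicates 1 to 3. The part of the acute-phase response in the enzymes' values was not tested. Coordinates are those of the deposited table, on GRCm38. The label of liver was checked against 8 hepatocyte markers such as Alb, all of which passed the filter on low values, with a summed level of 46463 to 51334 FPKM in CR livers and 23075 to 37127 FPKM in AL livers. Most of that sum was Alb, at 39211 FPKM on average in CR livers and 20408 FPKM in AL livers. Of the 8 markers 3 rose (Alb, Serpinc1 and Apoh) and 1 fell (Fgb), where 11.3% of all genes tested rose and 10.2% fell. The sum of 4 kidney markers, a tissue that shares several of the enzymes, was at most 0.0211 FPKM in CR livers and 0.0781 FPKM in AL livers.

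Transcripts of amino acid catabolism were more often higher than lower in CR livers. Of the 44 enzymes 14 rose (31.8%), 1 fell (2.27%) and 29 stayed short of the threshold, an adjusted p under 0.05 from limma, where 11.3% of the 12699 genes tested rose and 10.2% fell. The 44 were chosen with earlier results of these data known, so the shares are a description and were not tested against each other. Cdo1, which oxidises cysteine, rose furthest, and Kmo, the kynurenine hydroxylase, was the enzyme that fell. Every enzyme was above 2 FPKM in every library, so that the filter removed none of them. The log2 fold change of CR over AL was positive for 35 of the 44, with a median of 0.21 and a range of -0.94 to 1.37, against a median of -0.0019 over all genes tested. Fold changes are on the scale of log2(FPKM + 0.1). Only Cdo1 changed by more than 1 on it. In bulk liver a smaller number of cells of a type and less RNA per cell cannot be told apart.

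All CR livers lay above all AL livers for 20 enzymes, where 17.6% of all genes tested did so, and all CR livers lay below all AL livers for Kmo alone, where 16.8% of all genes did so. The livers overlapped for the other 23. The 14 enzymes that rose are among the 20, with Hgd, Tdo2, Acmsd, Bckdha, Aass and Got2 as the rest, for which the adjusted p was 0.0694 to 0.207. At an unadjusted p under 0.05 there were 19 of the 44 enzymes, where 35.8% of all genes tested (4551 of 12699) were under it. Without AL replicate 3, 12 enzymes rose and 2 fell. The number that rose was 9 without AL replicate 1 and 8 without AL replicate 2, and 10 to 13 without any single CR replicate. Counts over all genes also changed when a library was left out, and their ranges are given in the last section. Of all genes called in these fits, 51.5% to 56.9% rose.

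**Figure D1:**
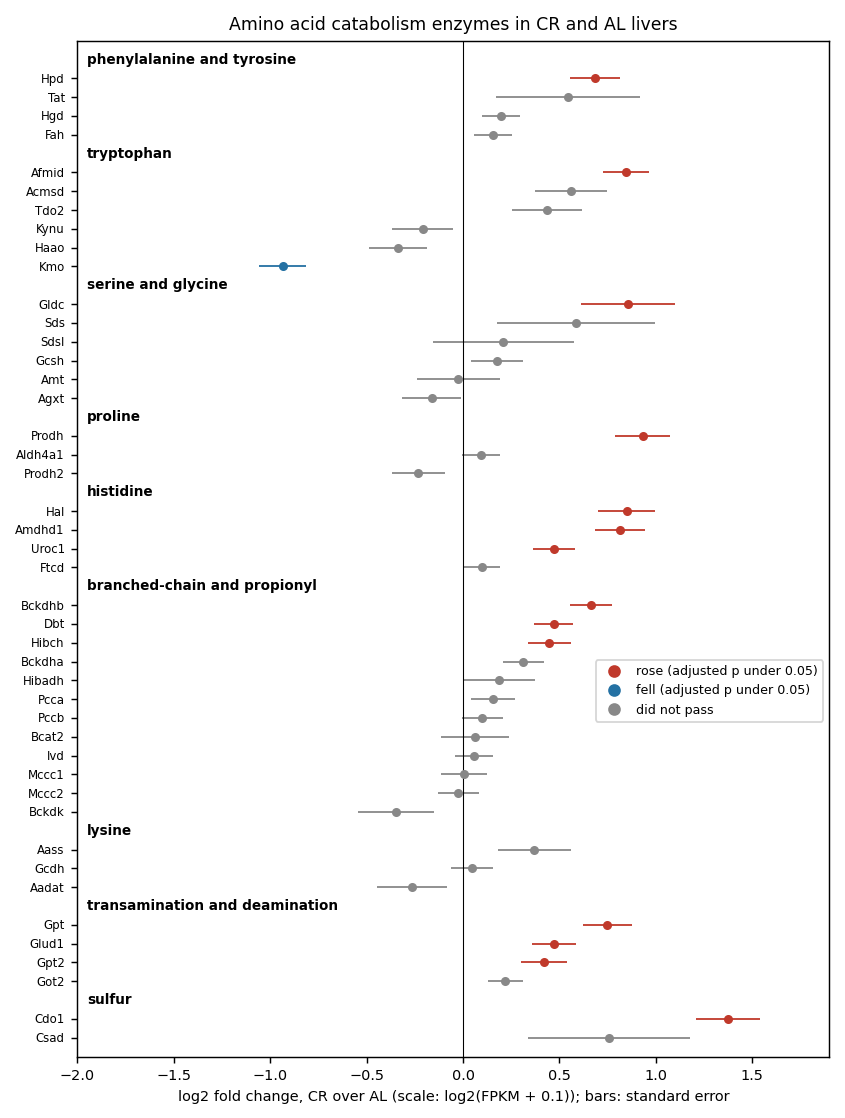
Log2 fold change of CR over AL for the 44 enzymes, grouped by pathway, with the standard error from limma as bars (4 CR and 3 AL livers, scale log2(FPKM + 0.1)). Red points are the 14 enzymes that rose, the blue point is Kmo, and grey points did not pass.

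Of the 4 enzymes of histidine breakdown 3 rose (75%, against 11.3% of all genes tested), and these act in sequence at its start. Hal, histidine ammonia-lyase, which makes urocanate (chr10:93488768-93519304), had 94.2, 95.0, 79.2 and 99.5 FPKM in CR replicates 1 to 4, against 46.5, 44.98 and 62.7 FPKM in AL replicates 1 to 3 (log2 fold change 0.85 with a standard error of 0.15, adjusted p = 0.00739). Uroc1, urocanase (chr6:90333284-90364551), had 136, 149.9, 118 and 128 FPKM in the CR livers, against 92.0, 98.1 and 96.5 FPKM in the AL livers (log2 fold change 0.47 with a standard error of 0.11, adjusted p = 0.0223). Amdhd1, which opens the imidazolone ring (chr10:93523338-93540033), had 103, 110.3, 96.2 and 109.7 FPKM in the CR livers, against 68.3, 61.4 and 49.9 FPKM in the AL livers (log2 fold change 0.82 with a standard error of 0.13, adjusted p = 0.00519). In each of these genes the lowest CR liver exceeded the highest AL liver, which for Hal was AL replicate 3. Ftcd, which passes the remaining formimino group to folate (chr10:76575648-76590338), had 105, 101, 114 and 116 FPKM in the CR livers and 102, 105 and 98.5 FPKM in the AL livers, which overlapped (log2 fold change 0.10, adjusted p = 0.517). Uroc1 missed the threshold without CR replicate 1 or 2 or AL replicate 1 or 2 (adjusted p = 0.0532 to 0.0842 from limma).

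Hal and Amdhd1 are neighbours on chromosome 10. They face each other from opposite strands, with 4033 bases and no annotated gene between their ends, while Uroc1 lies on chromosome 6 and Ftcd elsewhere on chromosome 10. The 250 bases before the start of each histidine enzyme are shown because 3 of these genes rose and the fourth, Ftcd, did not pass. They are RefSeq sequence on GRCm38.p6, read 5′ to 3′ on the gene's strand, for Hal chr10:93488518-93488767, Amdhd1 chr10:93540034-93540283, Uroc1 chr6:90333039-90333288 and Ftcd chr10:76575398-76575647. The start of Uroc1 in RefSeq lies 5 bases from the deposited start. Capitals mark matches to the motifs listed after them.
Hal: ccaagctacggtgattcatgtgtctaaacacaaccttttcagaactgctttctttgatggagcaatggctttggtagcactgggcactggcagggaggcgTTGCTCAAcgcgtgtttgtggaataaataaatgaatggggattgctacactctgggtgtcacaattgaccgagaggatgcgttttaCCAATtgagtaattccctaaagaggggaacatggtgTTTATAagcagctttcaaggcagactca
Amdhd1: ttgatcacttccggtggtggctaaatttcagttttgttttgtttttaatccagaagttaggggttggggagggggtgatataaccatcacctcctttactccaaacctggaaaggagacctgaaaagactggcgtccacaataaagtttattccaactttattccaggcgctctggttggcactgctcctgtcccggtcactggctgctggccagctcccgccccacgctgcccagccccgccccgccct
Uroc1: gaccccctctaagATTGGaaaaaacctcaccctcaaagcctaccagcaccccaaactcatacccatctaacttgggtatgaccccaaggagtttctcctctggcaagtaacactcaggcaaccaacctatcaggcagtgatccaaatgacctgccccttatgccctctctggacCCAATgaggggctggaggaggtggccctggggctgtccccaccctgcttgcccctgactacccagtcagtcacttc
Ftcd: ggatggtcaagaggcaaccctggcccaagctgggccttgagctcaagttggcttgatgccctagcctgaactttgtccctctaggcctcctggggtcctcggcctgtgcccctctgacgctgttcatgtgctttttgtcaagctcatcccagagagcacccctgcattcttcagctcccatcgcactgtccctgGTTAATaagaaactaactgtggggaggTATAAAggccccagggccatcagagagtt

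Short motifs of transcription factors known in liver were searched on both strands, and no matches overlapped in these windows. The Hal window held the TATA box (TATAAA, here on the opposite strand) 28 bases before the start, the CCAAT box at 64 bases and the C/EBP motif (TTGCNNAA) at 150 bases. The Uroc1 window held the CCAAT box at 76 and, on the opposite strand, at 237 bases. The Ftcd window held the TATA box at 29 bases and part of the HNF1 site (GTTAAT) at 56 bases, and the Amdhd1 window held none of the motifs. Of 32851 windows of this length in the annotation, the CCAAT box (letters CCAAT) stood in 33.8%, the TATA box in 12.4%, the C/EBP motif in 9.6% and the HNF1 motif in 6.4%. The remaining motifs were part of the glucocorticoid receptor site (AGAACA, 16.1% of windows), the forkhead motif (TGTTTAC, 3.2%), the cyclic AMP response element (TGACGTCA, 1.5%) and the HNF4 motif (CAAAGTCCA, 0.4%). Among the 44 enzymes 38 had a window, of which 20 held the CCAAT box, 6 the TATA box, 5 the C/EBP motif, 5 the glucocorticoid receptor motif and 4 the HNF1 motif, 1 each the forkhead and the HNF4 motif, and 0 the cyclic AMP response element. A match is a run of letters and was not tested as a binding site. For 27 of the 38 windows, bases 6 to 25 after the start lay in the first 40 bases of a transcript of the gene. For the rest the position of the start was not checked further.

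Of the 4 enzymes that move or release amino groups, 3 rose (75%, against 11.3% of all genes tested). Gpt, the cytosolic alanine transaminase (chr15:76695716-76699686), had 113, 114, 141 and 147 FPKM in CR replicates 1 to 4, against 77.1, 74.4 and 76.6 FPKM in AL replicates 1 to 3 (log2 fold change 0.75 with a standard error of 0.13, adjusted p = 0.00674). Its mitochondrial counterpart Gpt2 (chr8:85492576-85527560) had 104, 108, 117 and 105 FPKM in the CR livers, against 86.4, 89.1 and 68.8 FPKM in the AL livers (log2 fold change 0.42 with a standard error of 0.12, adjusted p = 0.0432). Both alanine transaminases, which turn alanine into pyruvate for gluconeogenesis, were thus higher in every CR liver than in any AL liver, with Gpt highest in CR replicates 3 and 4. Glud1, glutamate dehydrogenase, which releases ammonia from glutamate (chr14:34310727-34345265), had 359, 343, 405 and 331 FPKM in the CR livers, against 256, 245 and 275 FPKM in the AL livers (log2 fold change 0.47 with a standard error of 0.11, adjusted p = 0.0240). The groups did not overlap, and CR replicate 3 was highest. Got2, the mitochondrial aspartate transaminase, averaged 96.6 ± 3.98 FPKM in CR livers and 82.9 ± 3.86 FPKM in AL livers (SD, n = 4 CR and n = 3 AL livers, as for all values given with ±), with a difference short of the threshold (log2 fold change 0.22, adjusted p = 0.130). Gpt2 missed the threshold whichever single library was left out (adjusted p = 0.0721 to 0.0910) and Glud1 missed it without CR replicate 1 or 2 or AL replicate 1 or 2 (0.0513 to 0.102).

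In the sulfur pathway Cdo1, cysteine dioxygenase, which commits cysteine to taurine or sulfate (chr18:46713205-46728342), had 1240.2, 1263, 1468 and 1129.9 FPKM in CR replicates 1 to 4, against 552, 552 and 385 FPKM in AL replicates 1 to 3. The level was 2.57-fold higher in CR livers by the ratio of the means (log2 fold change 1.37 with a standard error of 0.17, adjusted p = 0.00180). The lowest CR liver had more than the highest AL liver, and AL replicate 3 was the lowest of all. Csad, which decarboxylates the product of Cdo1 towards taurine, had 138, 154, 116 and 72.6 FPKM in the CR livers and 111, 84.6 and 33.9 FPKM in the AL livers, with overlap (log2 fold change 0.76 with a standard error of 0.42, adjusted p = 0.241). Its levels spread by 2.12-fold among CR livers and 3.28-fold among AL livers, the lowest being AL replicate 3 and CR replicate 4. The values of Csad are given for each liver because of that spread, which was seen in the data.

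**Figure D2:**
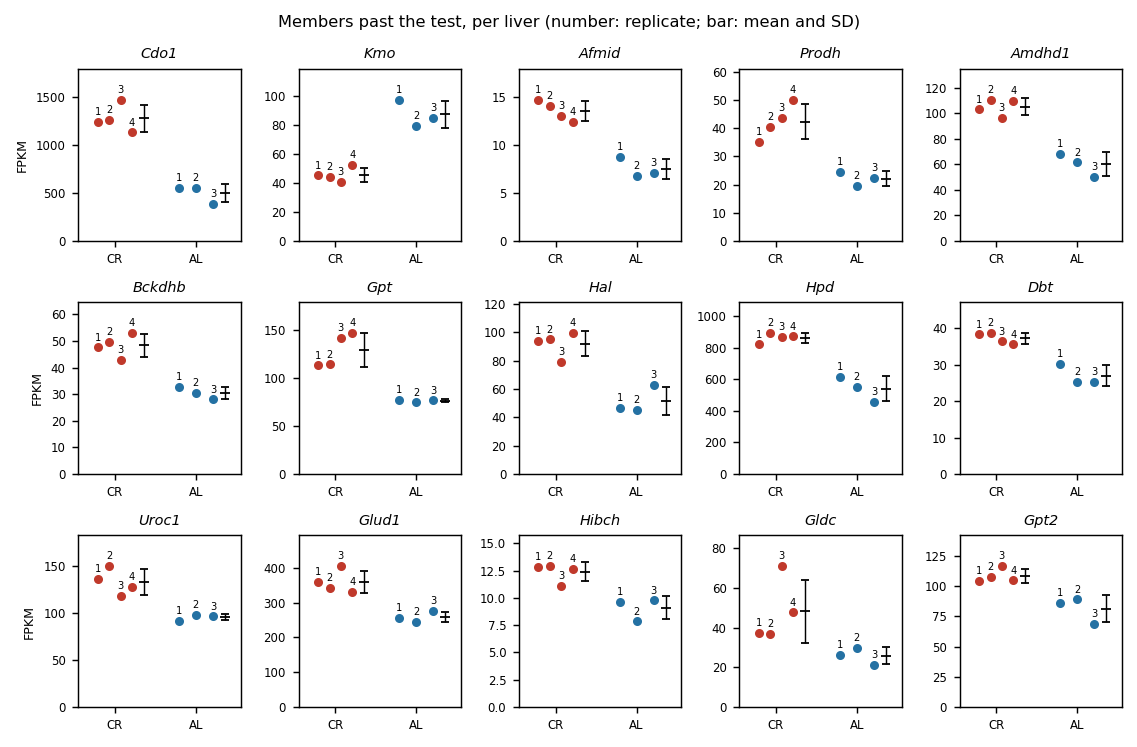
FPKM of the 15 enzymes that passed limma's test, each point 1 liver numbered by replicate, CR on the left and AL on the right, with the mean and SD as bars. In each panel the 4 CR livers and the 3 AL livers are separate, and Kmo is the panel with the CR livers below.

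Branched-chain breakdown is the largest group, with 12 genes, of which 3 rose, 9 did not pass and none fell. The share that rose was 25%, against 11.3% of all genes tested. Bckdhb, a subunit of the decarboxylase component of the branched-chain keto acid dehydrogenase (chr9:83925145-84124240), had 47.5, 49.7, 43.0 and 53.0 FPKM in CR replicates 1 to 4, against 32.8, 30.5 and 28.0 FPKM in AL replicates 1 to 3 (log2 fold change 0.66 with a standard error of 0.11, adjusted p = 0.00592). Dbt, the transacylase core of the same complex (chr3:116513070-116549981), had 38.4, 38.8, 36.5 and 35.6 FPKM in the CR livers, against 30.3, 25.3 and 25.4 FPKM in the AL livers (log2 fold change 0.47 with a standard error of 0.10, adjusted p = 0.0164). The CR livers were above the AL livers for both subunits. Bckdha, the partner of Bckdhb, averaged 37.2 ± 3.61 FPKM in CR livers and 29.9 ± 1.68 FPKM in AL livers and also showed no overlap, with a log2 fold change of 0.31 that did not pass (adjusted p = 0.0751). Bckdk, the kinase that inactivates the complex, had the lowest level of the 44 genes, at 2.72 ± 0.650 FPKM in CR livers and 3.45 ± 0.577 FPKM in AL livers (log2 fold change -0.35, adjusted p = 0.247). Bcat2, the mitochondrial transaminase of the first step, averaged 6.61 ± 1.37 FPKM in CR livers and 6.25 ± 0.709 FPKM in AL livers, with overlap.

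Further down the valine branch Hibch, which frees hydroxyisobutyrate from CoA (chr1:52844929-52920986), had 12.8, 12.9, 11.1 and 12.7 FPKM in the CR livers, against 9.62, 7.86 and 9.76 FPKM in the AL livers (log2 fold change 0.45 with a standard error of 0.11, adjusted p = 0.0298). The CR livers were the higher ones, with CR replicate 3 the closest to the AL livers. Hibadh, which oxidises hydroxyisobutyrate in the next step, had a log2 fold change of 0.19 (adjusted p = 0.507). In the leucine branch Ivd, isovaleryl-CoA dehydrogenase, and the carboxylase subunits Mccc1 and Mccc2 had log2 fold changes of 0.057, 0.0033 and -0.024. Mccc1 ran from 4.43 to 4.52 FPKM in CR livers and from 3.81 to 5.13 FPKM in AL livers, so that the AL livers spanned the CR livers. The propionyl-CoA carboxylase subunits Pcca and Pccb had values of 0.16 and 0.10 on the same log2 scale, short of the threshold (adjusted p = 0.376 and 0.545). Dbt missed the threshold without AL replicate 2 (adjusted p = 0.0765) and Hibch without any single library other than CR replicate 3 or AL replicate 3 (0.0598 to 0.108).

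Tryptophan breakdown held the enzyme that fell and 1 that rose, among 6. That is 16.7% in each direction, near the 11.3% of all genes tested that rose and the 10.2% that fell. Afmid, which hydrolyses formylkynurenine to kynurenine (chr11:117825924-117839908), had 14.7, 14.1, 13.0 and 12.4 FPKM in CR replicates 1 to 4, against 8.71, 6.77 and 7.03 FPKM in AL replicates 1 to 3 (log2 fold change 0.85 with a standard error of 0.12, adjusted p = 0.00334). Kmo, which hydroxylates kynurenine on the way to NAD and acetyl-CoA (chr1:175620381-175662116), had 45.3, 44.0, 40.7 and 52.5 FPKM in the CR livers, against 97.5, 79.6 and 85.0 FPKM in the AL livers. Kmo was lower in every CR liver than in any AL liver, at 0.522 times the AL mean (log2 fold change -0.94 with a standard error of 0.12, adjusted p = 0.00257). Tdo2, the dioxygenase that opens the pathway, averaged 369 ± 84.6 FPKM in CR livers and 268 ± 22.9 FPKM in AL livers without overlap (log2 fold change 0.44, adjusted p = 0.126). Acmsd, the decarboxylase that diverts carbon from NAD synthesis, averaged 10.7 ± 2.47 FPKM in CR livers and 7.09 ± 0.422 FPKM in AL livers, with a log2 fold change of 0.56 that passed only without CR replicate 4 (adjusted p = 0.0694 with all livers and 0.0158 without it). Kynu, kynureninase, and Haao, which opens the ring of hydroxyanthranilate, had log2 fold changes of -0.21 and -0.34. Haao passed as lower in CR without AL replicate 3 (adjusted p = 0.0400), in which it had 247 FPKM against 336 and 330 FPKM in the other AL livers.

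Of the 4 enzymes of phenylalanine and tyrosine breakdown 1 rose (25%, against 11.3% of all genes tested). Hpd, which makes homogentisate (chr5:123171807-123182727), had 822, 894, 868 and 874 FPKM in CR replicates 1 to 4, against 614, 554 and 457 FPKM in AL replicates 1 to 3 (log2 fold change 0.68 with a standard error of 0.13, adjusted p = 0.00972). The CR livers were close to each other, with the highest at 1.09 times the lowest. Tat, tyrosine aminotransferase, which starts the pathway (chr8:109990437-109999803), had 546, 924, 1621 and 1379 FPKM in the CR livers and 653, 948 and 570.0 FPKM in the AL livers. The groups overlapped, since CR replicate 1 was the lowest of the 7 livers and CR replicates 3 and 4 the highest (log2 fold change 0.54 with a standard error of 0.37, adjusted p = 0.337). Hgd, which opens the ring of homogentisate, averaged 179 ± 3.21 FPKM in CR livers and 156 ± 12.4 FPKM in AL livers, without overlap but short of the threshold (log2 fold change 0.20, adjusted p = 0.189). Fah, the last enzyme, had a log2 fold change of 0.16 (adjusted p = 0.298).

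Among the 6 enzymes of serine and glycine 1 rose (16.7%), near the 11.3% of all genes tested. Gldc, the decarboxylase of the glycine cleavage system (chr19:30098449-30175418), had 37.5, 36.8, 71.0 and 47.7 FPKM in CR replicates 1 to 4, against 26.5, 30.0 and 21.4 FPKM in AL replicates 1 to 3 (log2 fold change 0.85 with a standard error of 0.24, adjusted p = 0.0421). The groups did not overlap, and CR replicate 3 was well above the other CR livers. The other components of the system, the carrier Gcsh and the aminomethyltransferase Amt, had log2 fold changes of 0.18 and -0.026, with overlap in both. Sds, serine dehydratase, which turns serine into pyruvate, had 76.5, 80.2, 198 and 210.4 FPKM in the CR livers and 89.2, 104 and 64.2 FPKM in the AL livers (log2 fold change 0.59 with a standard error of 0.41, adjusted p = 0.345). Its relative Sdsl had 5.01, 7.71, 16.7 and 11.5 FPKM in the CR livers and 6.93, 8.77 and 8.53 FPKM in the AL livers (log2 fold change 0.21, adjusted p = 0.720). For both genes CR replicates 3 and 4 were above the 3 AL livers, while CR replicate 1 was the lowest liver for Sdsl and only above AL replicate 3 for Sds. Sds and Sdsl were named for this spread after their values were seen, and they lie 3715 bases apart on chromosome 5, facing away from each other. Such a split of the CR livers was common. Of the 12699 genes tested, 3374 had CR replicates 3 and 4 both above CR replicates 1 and 2, and 3333 had both below. Among the 44 enzymes these counts were 10 and 16. Agxt, which transaminates glyoxylate to glycine, had a log2 fold change of -0.16 (adjusted p = 0.490). Gldc missed the threshold without CR replicate 4 or any single AL replicate (adjusted p = 0.0786 to 0.107).

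**Figure D3:**
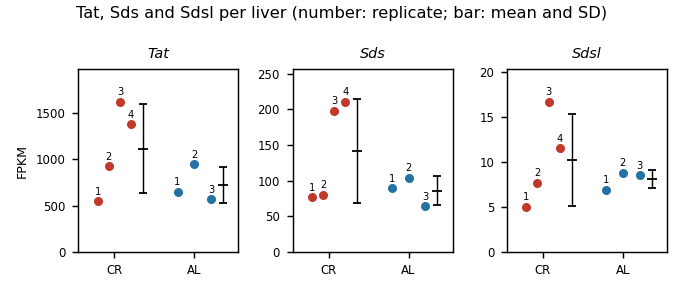
FPKM of Tat, Sds and Sdsl, each point 1 liver numbered by replicate, CR on the left and AL on the right, with the mean and SD as bars. CR replicates 3 and 4 are above the AL livers in each panel and CR replicate 1 is below the mean of the AL livers.

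Proline breakdown had 1 enzyme that rose among 3 (33.3%, against 11.3% of all genes tested). Prodh, proline dehydrogenase, which starts the pathway in mitochondria (chr16:18060357-18090203), had 35.3, 40.7, 43.6 and 50.1 FPKM in CR replicates 1 to 4, against 24.6, 19.5 and 22.3 FPKM in AL replicates 1 to 3 (log2 fold change 0.93 with a standard error of 0.14, adjusted p = 0.00460). Every CR liver was above every AL liver, and the ratio of the means was 1.92. Prodh2, which acts on hydroxyproline, averaged 48.9 ± 6.09 FPKM in CR livers and 57.6 ± 7.97 FPKM in AL livers (log2 fold change -0.23, adjusted p = 0.266). Aldh4a1, which completes both routes to glutamate or hydroxyglutamate, had a log2 fold change of 0.094 (adjusted p = 0.535). Of the 3 lysine enzymes 0 passed limma's test, and 0 had an unadjusted p under 0.05, where 35.8% of all genes tested did. Aass, the bifunctional enzyme of the first steps, averaged 111 ± 11.5 FPKM in CR livers and 87.6 ± 22.5 FPKM in AL livers and did not overlap, with AL replicate 3 the lowest at 61.6 FPKM (log2 fold change 0.37, adjusted p = 0.207). Aadat, which transaminates aminoadipate, and Gcdh, glutaryl-CoA dehydrogenase, differed by -0.27 and 0.047 on the log2 scale, CR over AL (adjusted p = 0.340 and 0.786).

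As levels per length, the enzymes spanned a wide range within the liver. Tat, Cdo1 and Hpd had the highest means over the 7 livers, at 949, 941 and 726 FPKM, and Tdo2 and Glud1 followed at 325 and 316 FPKM. The order within the leading group depended on the liver. Tat was above Cdo1 in every AL liver and in CR replicates 3 and 4, and below it in CR replicates 1 and 2. At the lower end were Bckdk, Mccc1 and Bcat2, at 3.03, 4.47 and 6.45 FPKM, so that the branched-chain genes held the lowest levels of the 44. These are levels of transcripts and not differences between diets.

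**Figure D4:**
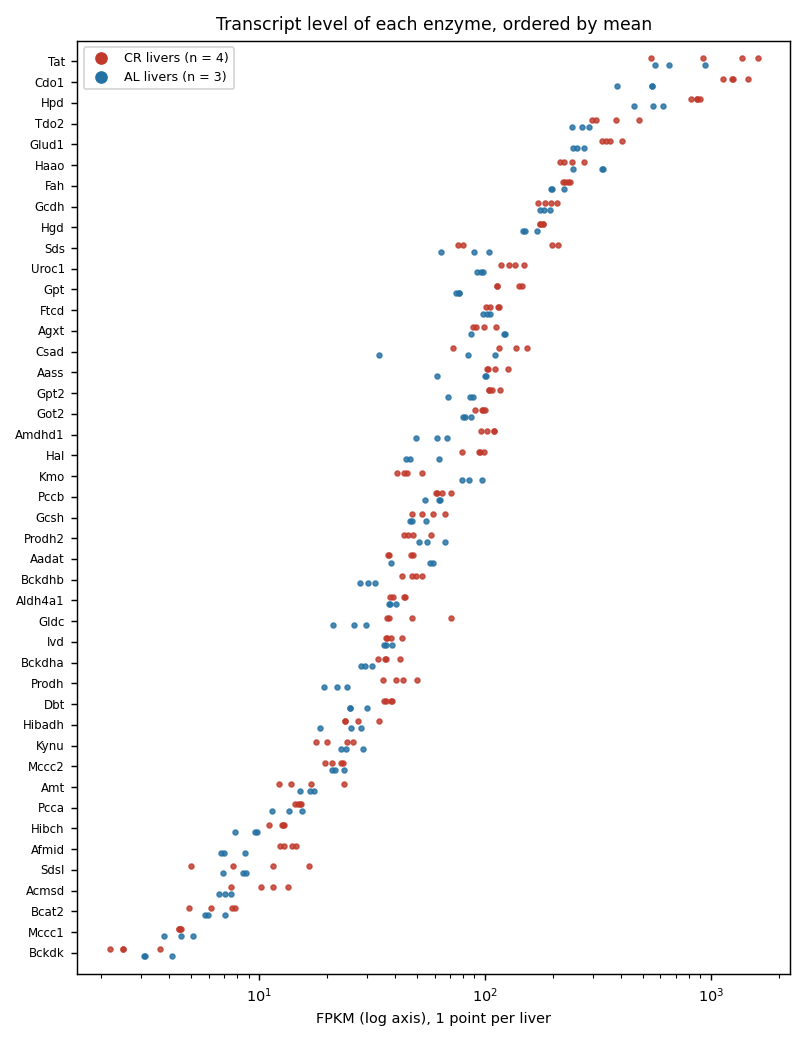
FPKM of the 44 enzymes on a log axis, ordered by the mean over the 7 livers, with 1 point per liver (CR in red above AL in blue). Tat, Cdo1 and Hpd are at the top, and Bckdk at the bottom is the only enzyme with livers below 3 FPKM.

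For a wider view 53 further enzymes of the same and adjoining routes were examined, of which 47 passed the filter. Of these 10 rose (21.3%), 5 fell (10.6%) and 32 did not pass, with a median log2 fold change of 0.21, against the 11.3% and 10.2% of all genes tested. Enzymes that rose included, with their log2 fold changes, Dhtkd1 of lysine breakdown at 1.11, Hoga1 of hydroxyproline breakdown at 0.91, and Asrgl1, an asparaginase, at 1.10 (adjusted p = 0.000863, 0.00132 and 0.0146 from limma). Dmgdh, which demethylates dimethylglycine, had a log2 fold change of 0.77 and Aldh1l1, which oxidises formyl-folate, one of 0.49 (adjusted p = 0.00303 and 0.0185). Echs1 and Hadh, which also serve fatty acid oxidation, rose by 0.73 and 0.66 on the log2 scale (adjusted p = 0.00238 and 0.0145). Enzymes that fell included, on the same scale, Grhpr, which reduces glyoxylate, at -1.18, Kyat1, a kynurenine aminotransferase, at -0.99, Qprt, which leads from quinolinate to NAD, at -0.49, and Acadsb, which oxidises the isoleucine-derived acyl-CoA, at -0.50 (adjusted p = 0.00180, 0.0213, 0.0154 and 0.0247). Gls2, the liver glutaminase, rose by 0.53 on it (adjusted p = 0.0226). Without AL replicate 2, 5 of the further enzymes rose, and without CR replicate 3 or 4, 2 fell.

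**Figure D5:**
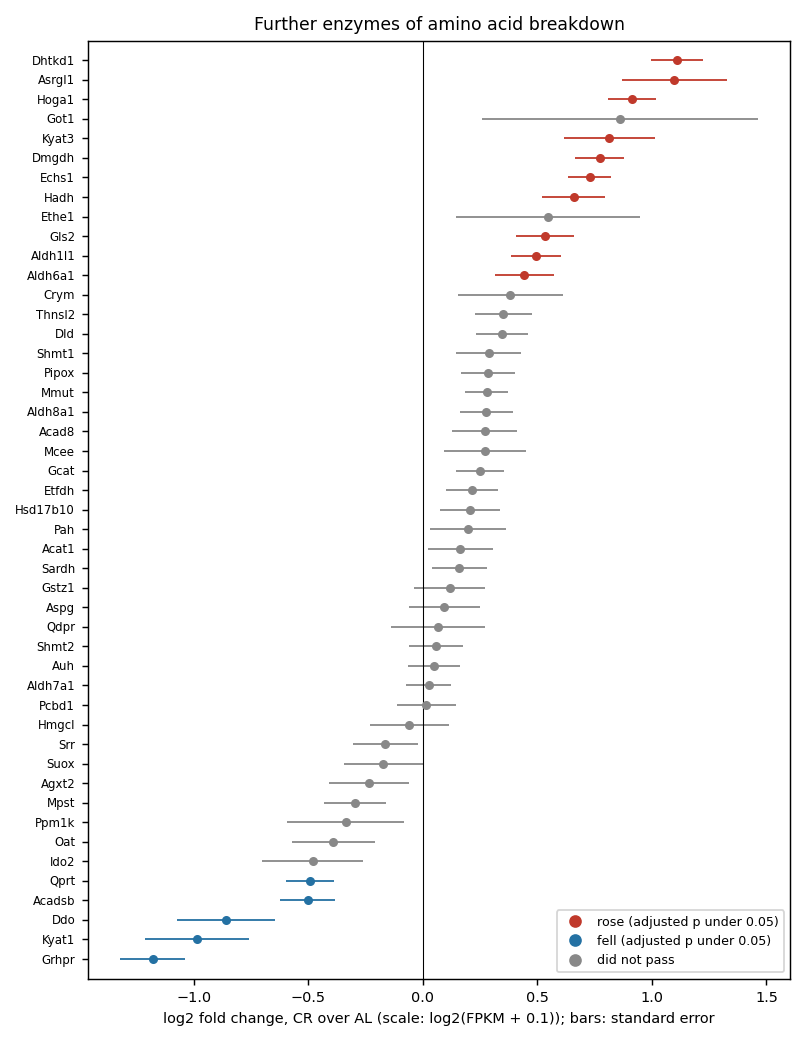
Log2 fold change of CR over AL for the 47 further enzymes that passed the filter, with the standard error from limma as bars (4 CR and 3 AL livers). Dhtkd1 is at the top at 1.11 and Grhpr at the bottom at -1.18.

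In tryptophan breakdown, Kmo and the further enzymes Kyat1 and Qprt were thus lower in CR livers, while Afmid and Kyat3, another kynurenine aminotransferase, were higher. Kyat3, outside the 12 with the smallest adjusted p, is named because it went the other way (log2 fold change 0.81, adjusted p = 0.0261). Got1, the cytosolic aspartate transaminase, resembled Sds in its values, with 63.1, 53.9, 242 and 204 FPKM in CR replicates 1 to 4 and 89.5, 77.4 and 35.4 FPKM in AL replicates 1 to 3 (log2 fold change 0.86 with a standard error of 0.60, adjusted p = 0.346). CR replicates 3 and 4 were above and CR replicates 1 and 2 within the range of the AL livers. Got1 was named after its values were seen.

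Of 12 known regulators of these enzymes 1 rose (8.33%) and 2 fell (16.7%), where 11.3% and 10.2% of all genes tested did. Ppargc1a, a coactivator of gluconeogenic genes, had 4.41, 5.04, 6.94 and 4.95 FPKM in CR replicates 1 to 4, against 0.969, 0.75 and 1.04 FPKM in AL replicates 1 to 3 (log2 fold change 2.40 with a standard error of 0.19, adjusted p = 0.000215). Cebpa, a transcription factor of hepatocytes, averaged 110.4 ± 11.4 FPKM in CR livers and 159.5 ± 3.25 FPKM in AL livers (log2 fold change -0.54, adjusted p = 0.0140). Creb3l3, a membrane-bound factor induced in fasting, averaged 61.1 ± 17 FPKM in CR livers and 114 ± 16.4 FPKM in AL livers (log2 fold change -0.92, adjusted p = 0.0193). The CR livers were above the AL livers for Ppargc1a and below them for Cebpa and Creb3l3. Named for their roles, Klf15, which drives amino acid breakdown in fasting, Nr3c1, the glucocorticoid receptor, and Gcgr, the glucagon receptor, differed by 0.15, 0.012 and -0.29 on the log2 scale, CR over AL (adjusted p = 0.489, 0.959 and 0.164). Without AL replicate 1 only 1 of the regulators fell, and without AL replicate 2 neither Cebpa nor Creb3l3 passed. At an unadjusted p under 0.05 there were 4 of the 12 regulators with all livers, where 35.8% of all genes were under it. They were the regulators that passed and Foxo1, whose groups overlapped (log2 fold change 0.67, adjusted p = 0.0623 from limma).

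Hepatocytes near the portal vein hold more of several of these enzymes than those near the central vein, so markers of both zones that are not among the 44 were examined. Of 7 periportal markers Ass1 and Hsd17b13 rose and Cyp2f2 and Cdh1 fell, with a summed level of 3768 to 4906 FPKM in CR livers and 2252 to 3057 FPKM in AL livers. Over all genes tested, 11.3% rose, 10.2% fell and 35.8% had an unadjusted p under 0.05, as background for each marker list. An unadjusted p under 0.05 was found for 5 of the 7 periportal markers. These include Cps1, which was higher in every CR liver but did not pass (log2 fold change 0.81, adjusted p = 0.0582 from limma). Ass1, Cps1 and Pck1 made up most of the sum, with means of 1289, 1235 and 1251 FPKM in CR livers and 585, 735 and 837 FPKM in AL livers. Of 7 pericentral markers 0 passed limma's test and 0 had an unadjusted p under 0.05, with a sum of 2629 to 4278 FPKM in CR livers and 2956 to 3503 FPKM in AL livers. Most of that sum was Cyp2e1, at 2986 FPKM on average in CR livers and 2790 FPKM in AL livers. Of 6 endothelial markers 0 passed and 1 had an unadjusted p under 0.05, and their sum was 20.01 to 43.2 FPKM in CR livers and 46.0 to 50.8 FPKM in AL livers. Of 7 Kupffer cell markers Marco rose (log2 fold change 1.87, adjusted p = 0.0111) and C1qa fell (-0.65, adjusted p = 0.0411), 3 had an unadjusted p under 0.05, and their sum was 83.5 to 224 FPKM in CR livers and 142 to 229 FPKM in AL livers. The endothelial and the Kupffer cell sum were both lowest in CR replicate 3. That liver had 3.09 FPKM of Stab2 and 8.03 FPKM of Vsig4, against 6.94 to 7.57 and 18.8 to 33.3 FPKM in the other CR livers. Of the markers in these lists, only Lyve1 and C1qa had their lowest CR value in another liver. Cfd of the adipocyte markers and Cela1 of the pancreas markers fell, with sums of at most 0.504 and 2.41 FPKM in CR livers and 6.26 and 13.4 FPKM in AL livers, and 3 of the 4 pancreas markers were at 0 in every liver. Only 3 of 5 bile duct, 1 of 5 lymphocyte and 2 of 4 neutrophil markers reached the filter and were tested, with all 6 stellate markers. None of those tested passed, and 1 of them, in the bile duct list, had an unadjusted p under 0.05. The part of cell makeup in the enzymes' values was not tested.

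Some of the values rest on reads that could belong to another gene. Afmid shares 37.4% of the 100-base words in its transcripts with other genes, mainly with Gm20708, Aldh4a1 shares 27.5%, mainly with Gm21969, and Got2 8.83%, mainly with its pseudogene Got2-ps1, whereas the other 41 enzymes share under 5%. Whether reads were counted by strand is not stated in the sources used. Reads from bases that a gene shares with a partner on the opposite strand therefore cannot be assigned. Partners were found by the coordinates of whole genes, so how far exons overlap was not examined. Only partners that passed the filter and reached 5% of the enzyme's mean FPKM were listed. This concerns Kmo with Fh1, Afmid with Tk1, Prodh with Dgcr6, Sds with Plbd2 and Gm15690, Csad with Zfp740, Pcca with Ggact, Mccc1 with Gm15952 and Bcat2 with 0610005C13Rik.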

How the data were processed

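Liver RNA of 7 mice was sequenced. The authors deposited 1 table of FPKM values, made per the submitters' processing notes with CASAVA 2.19, HISAT2 2.0.5 and featureCounts 1.5.0-p3. The FPKM formula and the use of strand in counting are not given in the sources used here. Multiplied by gene length, the FPKM came out as whole reads in every library to within 0.000215 of a read, and the deposited FPKM were scaled by size factors rather than by each library's total. No 2 libraries were duplicates.

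FPKM were taken as log2(FPKM + 0.1). Genes had to reach 0.5 FPKM in 3 or more libraries, which left 12699, and CR was compared with AL by limma 3.58.1 (two-sided, robust variance with a trend, statmod 1.5.0) in R 4.3.3, with p-values adjusted by Benjamini-Hochberg across these genes. The threshold was an adjusted p of 0.05. No count model was the main test, since the table holds FPKM, and limma-voom on the recovered reads was an alternative. The fit was also run on simulated counts with the same dispersion for every gene, which does not measure its error rates in these livers. The 44 enzymes and the lists of 53 further enzymes, 12 regulators and markers were chosen with earlier results of these data known, so no p was adjusted over a list alone. Gcat stood on 2 rows, and the row with the higher level was used. Of the further enzymes, Tdh, Dao, Aldh18a1, Pycr1, Bcat1 and Gadl1 did not pass the filter.

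Values of every liver are given for enzymes past the threshold whose groups did not overlap and for the 3 with the highest mean. Other enzymes are named with a level or fold change, and at most 12 further enzymes and 6 regulators past the threshold by smallest adjusted p. Alternatives were other pseudocounts, filters, scalings and variance models, the replicate number as a block, and leaving out each library. Shared words were counted in GENCODE M21 transcripts. Promoter windows came from RefSeq (GRCm38.p6). Figures were drawn with matplotlib 3.10.9 in Python 3.11.15. A p-value here covers the spread between mice, and the depth limits mainly genes of few reads.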

Additional observations from a re-analysis of the deposited data

Results flagged for a closer look

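Of the 44 enzymes, examined in the 4 CR livers, Hibch had 1 liver far from the others. CR replicate 3 had 11.1 FPKM and the nearest CR liver 12.7 FPKM, and this gap was 0.872 of the whole range, above Dixon's critical value for 4 samples. Chance alone marks about 1 in 20 groups. The 3 AL livers were too few for this check. Hibch was above every AL liver in CR replicate 3 as well.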

How the results depend on the processing

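Of the 15 enzymes called, 7 (Cdo1, Kmo, Afmid, Prodh, Amdhd1, Bckdhb and Gpt) were past the threshold in each of the 16 alternatives and 8 missed it in 1 or more. Of the 29 not called, 27 stayed so in each, and Acmsd and Haao passed in 1 each. The replicate numbers did not pair the livers (correlation of deviations 0.031, -0.044 and -0.057 for numbers 1 to 3). With the replicate block, in which CR replicate 4 has no partner, 6 enzymes rose and 1 fell, with 5 and 1 of the further enzymes, 1 of the regulators falling, and 482 genes rising and 508 falling over all genes. Hpd and Hal missed the threshold only there (adjusted p = 0.0672 and 0.0702 from limma), and Amt turned to 0.11. Without a filter 3 further enzymes fell, and Gldc, Hibch and Gpt2 missed the threshold (0.0812, 0.0622 and 0.0777), where more genes are tested. With neither trend nor robust variance Gldc and Gpt2 missed it (0.0566 and 0.0587), and with the same FPKM total in each library Gpt2 did (0.0524). Of the regulators 2 rose with the same total and with limma-voom, and 0 when every library had to reach 1 FPKM, which removes Ppargc1a. Leaving out single libraries gave 8 to 13 rising and 1 to 2 falling enzymes, 5 to 9 and 2 to 5 further enzymes, 1 to 2 and 0 to 2 regulators, and 669 to 1514 and 540 to 1149 of all genes. The log2 fold changes with a change of sign ran from -0.21 to 0.11 for Amt, -0.025 to 0.20 for Bcat2, -0.064 to 0.029 for Mccc2, -0.11 to 0.10 for Mccc1 and -0.071 to 0.50 for Sdsl. Where no cause is given, it was not tested.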
